A study of Homo sapiens with 20 samples.

Results

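H4-only anchor pairs are contacts between 2 stretches of about 5 kb on 1 chromosome that were among the 300000 strongest of both H4 lines and among those of neither 42MGBA line. They were selected on list membership, that is on measured loop strength, with both anchors identical in position. They numbered 64555 of the 572000 anchor pairs in any of the 4 lists, and 30.3% of the 213275 pairs that both H4 lists held. Another 51.7% of those 213275 pairs were in all 4 lists, 12.02% were also in the 42MGBA list alone and 5.99% also in the 42MGBA 53-1 list alone. The mirror set, pairs of both 42MGBA lists in neither H4 list, numbered 60969, or 29.9% of 204138.

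H4 and 42MGBA are human glioblastoma lines that each carry a naturally occurring truncating mutation of STAG2. Gene editing corrected the mutation in their derivatives, H4 88-1 and 42MGBA 53-1, so that the parental lines are STAG2-mutant and the derivatives STAG2 wild-type. All 4 were grown in the same medium, and each genotype of a system is represented by a single line. Hi-C with the Arima Hi-C+ kit was done on 2 replicates of each line, and each deposited list pools the replicates of its line. There is therefore no replicate error for any value below, no p-value is given, and differences are descriptions of these 4 lists.

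Chromatin loops bring together distant stretches of DNA. The cohesin ring, of which STAG2 is a subunit, extrudes loops until it meets CTCF, a zinc finger protein that stops it most often where the CTCF motifs at the base of the loop point towards each other. Such loops can join promoters to enhancers, and their layout differs between cell types as well as between genotypes.

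The CTCF core motif, searched as 12 bases on both strands, is shown first because it marks where cohesin is known to stop. It was found in 1.82% of 583646 windows of the human genome of the median anchor length and in 3.93% of all anchors of any list. The share was 5.33% of the 35123 anchors of H4-only pairs and 5.85% of the anchors of pairs in all 4 lists. At least 1 anchor held it in 12.4% of H4-only pairs, against 15.1% of the pairs in all 4 lists, 8.82% of the 42MGBA-only pairs and 11.4% of the pairs in any list. Both anchors held it in 201 H4-only pairs. The strongest such pair was taken from each named group of neighbouring pairs that had one, by group size. The sequences are those of the plus strand of hg19, 5′ to 3′, and the capitals mark the motif match.
MSI2 and AKAP1 group, left anchor, motif on the plus strand, chr17:55208487-55208538: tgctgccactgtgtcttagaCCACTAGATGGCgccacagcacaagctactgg
MSI2 and AKAP1 group, right anchor, motif on the minus strand, chr17:55910859-55910910: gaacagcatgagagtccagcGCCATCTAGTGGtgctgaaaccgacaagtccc
CD36 and SEMA3C group, left anchor, motif on the plus strand, chr7:80328518-80328569: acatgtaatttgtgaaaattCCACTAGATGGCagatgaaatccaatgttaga
CD36 and SEMA3C group, right anchor, motif on the plus strand, chr7:81112083-81112134: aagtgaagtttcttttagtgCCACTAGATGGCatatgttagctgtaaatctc
IGFBP1 and IGFBP3 group, left anchor, motif on the minus strand, chr7:45894040-45894091: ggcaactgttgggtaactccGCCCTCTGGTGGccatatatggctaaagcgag
IGFBP1 and IGFBP3 group, right anchor, motif on the minus strand, chr7:47219971-47220022: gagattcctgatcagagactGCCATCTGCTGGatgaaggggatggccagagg
NAMPT flanking group, left anchor, motif on the minus strand, chr7:105807324-105807375: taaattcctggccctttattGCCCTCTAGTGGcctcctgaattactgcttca
NAMPT flanking group, right anchor, motif on the minus strand, chr7:106116849-106116900: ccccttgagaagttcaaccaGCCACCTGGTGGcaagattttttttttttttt
SOX2 group, left anchor, motif on the plus strand, chr3:181427468-181427519: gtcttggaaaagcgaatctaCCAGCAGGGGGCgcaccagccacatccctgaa
SOX2 group, right anchor, motif on the plus strand, chr3:181966302-181966353: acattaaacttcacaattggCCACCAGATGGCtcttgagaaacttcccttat

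Of these 5 pairs, the one of the MSI2 and AKAP1 group had its motifs pointing towards each other, and in the other 4 both motifs pointed the same way. The convergent pair spanned 702 kb, at 7.74 in H4 and 8.21 in H4 88-1, and its nearest 42MGBA pair lay 86.8 kb away. The SOX2 pair, whose left anchor covers the SOX2 start, spanned 537 kb with strengths of 9.54 and 8.61, and had no 42MGBA pair within 1138 kb. Over all H4-only pairs with 1 motif orientation at each anchor, 101 of 193 were convergent (52.3%, Wilson 95% interval 45.3 to 59.3), 85 were tandem and 7 divergent. The convergent share was 67.9% (429 of 632) among pairs in all 4 lists, 40.5% (49 of 121) among 42MGBA-only pairs and 57.8% (1083 of 1874) among pairs in any list. The interval covers counting error only, and neighbouring pairs share anchors. A match is a description of letters, and CTCF binding was not measured.

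Loop strength, the deposited signal, had a floor in each list, which was 4.14 for the H4 list and 4.44 for that of H4 88-1, while the 42MGBA and 42MGBA 53-1 lists ended at 4.49 and 4.28. H4-only pairs had a median strength of 5.07 in H4 (highest 29.9) and 5.33 in H4 88-1 (highest 25.03), and pairs in all 4 lists had medians of 6.23 and 6.70. Since a pair missing from the 42MGBA lists is known only to lie under their floors, at most a lower bound on the difference between the systems can be given. The weaker of the 2 H4 values was at or over the higher 42MGBA floor in 49973 pairs (77.4%). In the rest the lists do not show that both H4 lines were stronger than both 42MGBA lines. The weaker of the 2 H4 values was at least 1.5-fold over the higher 42MGBA floor in 3408 pairs (5.28%), at least 2-fold in 374 (0.579%) and at least 3-fold in 33, and the median bound was 1.08-fold. Most H4-only pairs thus lay close to the threshold that defined them. The 100 nearest the H4 floors had median strengths of 4.35 and 4.45. Just outside the set, the 100 pairs that were barely in 1 42MGBA list had medians of 5.18 in H4 and 5.54 in H4 88-1 beside 4.49 in 42MGBA or 4.28 in 42MGBA 53-1.

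The name of the set holds for exact anchor positions. A pair of a 42MGBA list with both anchors within 5 kb existed for 46.1% of H4-only pairs, and another 16.6% had one at 5 to 10 kb. No such pair lay within 10 kb for 24090 (37.3%), within 25 kb for 15363 (23.8%) and within 100 kb for 8924 (13.8%). The anchors themselves were shared more widely. Both were used in some other 42MGBA pair for 50.5% of H4-only pairs, 1 was for 39.8% and neither was for 9.77%, and 66.0% of the 35123 anchors were in a 42MGBA list. For the 42MGBA-only pairs the same 3 shares against the H4 lists were 51.3%, 40.8% and 7.95%, and 45.2% had no H4 pair within 10 kb.

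**Figure D1:**
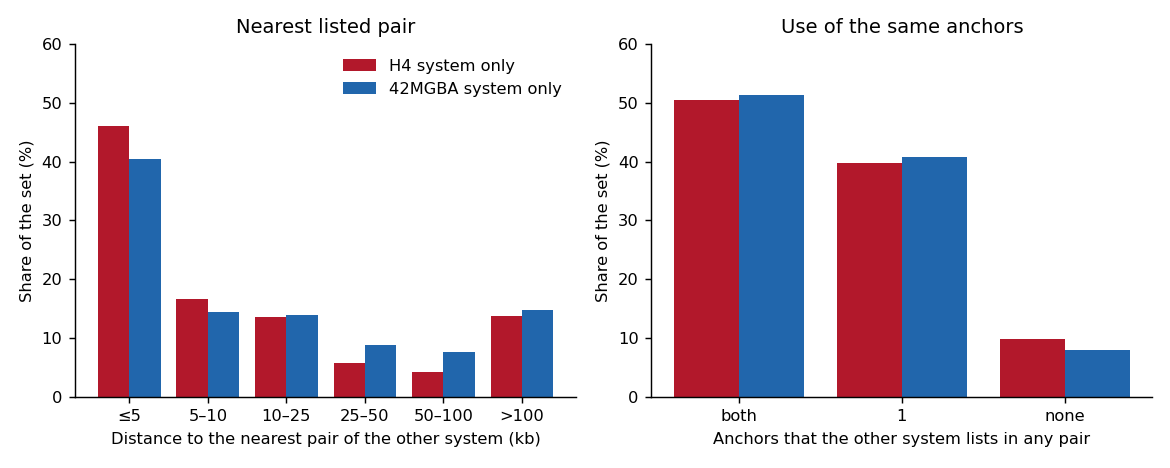
Left, share of H4-only (red) and 42MGBA-only (blue) anchor pairs by the distance in kb to the nearest pair that the other system lists. Right, share by how many of their anchors the other system lists in any pair. The tallest bars are the pairs with a near neighbour within 5 kb, 46.1% and 40.5%, and the pairs with both anchors in use, 50.5% and 51.3%.

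H4-only pairs had a longer median span than pairs in all 4 lists and 42MGBA-only pairs. Their median size was 373 kb (quartiles 241 and 575), against 305 kb for pairs in all 4 lists and 252 kb for 42MGBA-only pairs. The H4 system was longer as a whole, with a median of 333 kb for all pairs of both H4 lists and 285 kb for all pairs of both 42MGBA lists. Pairs of 1000 kb or more made up 4.58% of them, 2.33% of those in all 4 lists and 2.40% of the 42MGBA-only pairs, whereas pairs under 100 kb made up 4.35%, 4.64% and 14.5%. Of the pairs in both H4 lists, 28.6% were H4-only under 100 kb, 22.3% at 100 to 200 kb, 28.7% at 200 to 400 kb, 35.0% at 400 to 800 kb and 39.3% above that. The longer size was seen at every level of strength, with medians of 345 kb against 291 kb for the other pairs of both H4 lists in the weakest of 5 equal bins of strength and 474 kb against 343 kb in the strongest. By chromosome, H4-only pairs had the longer median than pairs in all 4 lists on 17 of 23 chromosomes and than 42MGBA-only pairs on 21 of 23. The chromosomes where they were shorter than pairs in all 4 lists were 2, 14, 15, 20, 21 and X (237 against 255 kb on X). Chromosome 7, with 14.3% of H4-only pairs, had the longest median, 601 kb, and without it the median was 350 kb, beside 295 kb for pairs in all 4 lists and 254 kb for 42MGBA-only pairs. With 1 pair kept for each group of neighbours the 3 medians were 312, 272 and 241 kb.

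**Figure D2:**
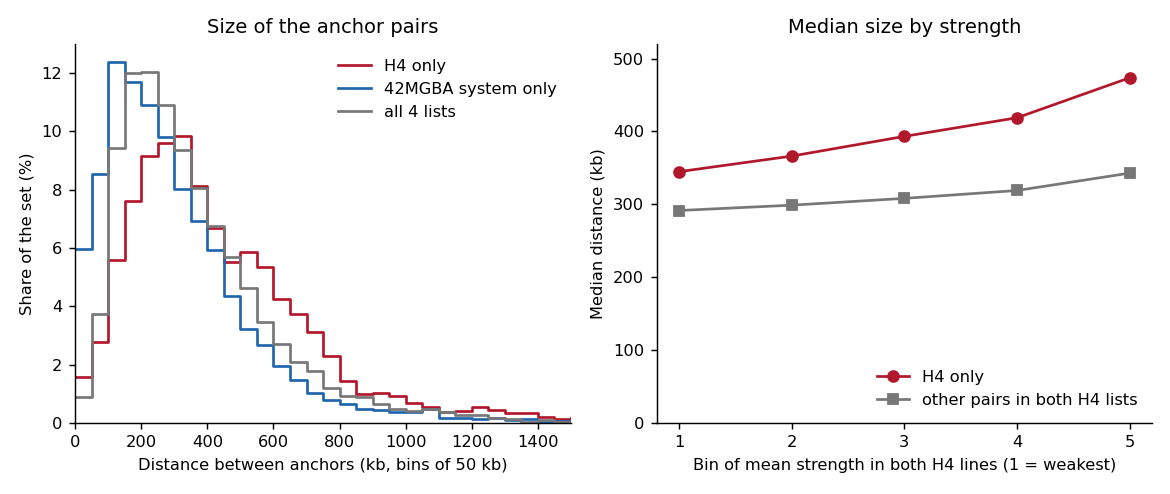
Left, distribution of the distance between anchors in kb for H4-only pairs (red), 42MGBA-only pairs (blue) and pairs in all 4 lists (grey), as the share of each set in bins of 50 kb. Right, median distance in kb for H4-only pairs and for the other pairs of both H4 lists, in 5 equal bins of the mean strength in both H4 lines. The red curve lies to the right of the others, and the red points lie above the grey ones in all 5 bins.

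The H4-only pairs were spread unevenly over the genome. Chromosomes 1 to 22 and X were compared. Of the pairs in both H4 lists, 71.4% were H4-only on chromosome X (1095 of 1533), 50.4% on chromosome 17, 42.5% on chromosome 3, 41.7% on chromosome 7 and 40.0% on chromosome 4. The lowest shares were 7.77% on chromosome 14, 8.91% on chromosome 20 and 8.99% on chromosome 21. Chromosomes with a high share were also those where pairs in all 4 lists were stronger in the H4 system than in the 42MGBA system. Each system was taken as the geometric mean of its mutant and its corrected line. The median log2 ratio of H4-system to 42MGBA-system strength in those pairs was 0.19 on chromosome 17, 0.18 on chromosome 7 and 0.10 on chromosome 3. It was -0.27 on chromosome 14, -0.28 on chromosome 20 and -0.19 on chromosome 21. Over the 23 chromosomes the share and this ratio had a Pearson r of 0.75, and of 0.92 without chromosome X, where the ratio was 0.03. Both quantities come from the same 4 lists, so that r is a description. The part of this chromosome-wide offset in the membership of a pair was not tested.

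**Figure D3:**
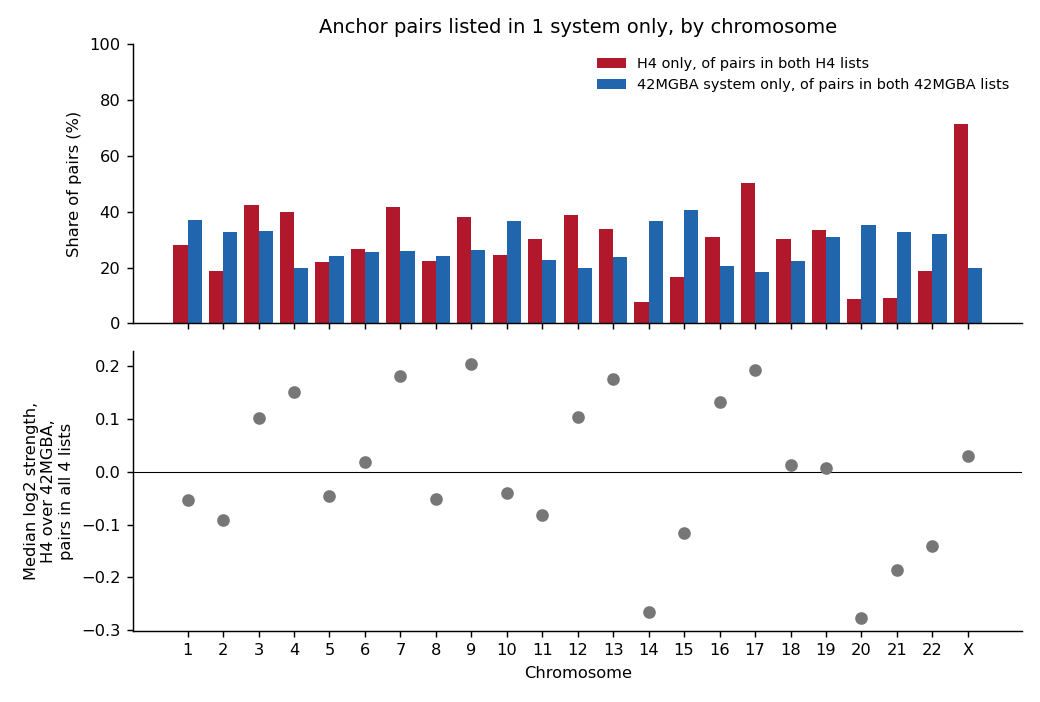
Top, share of the pairs of both H4 lists that were H4-only (red) and of the pairs of both 42MGBA lists that were 42MGBA-only (blue), for chromosomes 1 to 22 and X. Bottom, median log2 ratio of H4 to 42MGBA strength in the pairs of all 4 lists. Of those plotted, chromosomes X (71.4%) and 17 (50.4%) have the tallest red bars, and chromosomes 14, 20 and 21 have both the lowest red bars and the lowest points.

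At a finer scale, 69 of the 517 segments of 5 Mb with an H4-only pair held 50% of them. The segment chr17:55000001-60000000 held the most, 1520 of its 1997 pairs in both H4 lists (76.1%), followed by chr7:45000001-50000000 with 1296 of 2859 and chr3:185000001-190000000 with 1057 of 1750. In that order, these segments also held 868, 3374 and 887 pairs of a 42MGBA list. The median log2 ratio of H4-system to 42MGBA-system strength in their pairs of all 4 lists was 0.20, 0.47 and 0.70. Among the 477 segments with 50 or more pairs in both H4 lists, over 75% were H4-only in 20 and under 10% in 112. Only 9 segments held H4-only pairs and no 42MGBA pair at all, with 206 pairs (0.319%). Since 5 kb neighbours report the same contact, pairs whose anchors lay within 10 kb at both ends were joined into groups. The 64555 pairs formed 5942 groups, of which 1531 were single pairs and 1529 had 10 or more pairs and held 79.1% of the set. In 1447 groups no pair had a 42MGBA pair within 10 kb.

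The largest group joined a stretch next to AKAP1, which tethers protein kinase A at mitochondria, and MSI2, an RNA-binding protein of stem cells, to a stretch with MRPS23, of the mitochondrial ribosome, and CCDC182 (598 pairs, left anchors in chr17:55173638-55347739 and right anchors in chr17:55730651-55932892). Strengths in it ran from 4.15 to 10.9 in H4 and from 4.44 to 10.2 in H4 88-1, with medians of 5.94 and 6.15. The stretch between the outermost anchors held 869 pairs in the H4 list and 785 in the H4 88-1 list, but 41 in 42MGBA and 43 in 42MGBA 53-1. Of the 598 pairs, 159 had a 42MGBA pair within 10 kb. The strongest pair by the mean of both H4 lines (10.4 in H4 and 10.2 in H4 88-1) had one 4.48 kb away. AKAP1 itself had 81 H4-only pairs at its annotated starts and no pair in a 42MGBA list.

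The second largest group lay at SEMA3C, which encodes a secreted semaphorin that guides migrating cells and axons, and CD36, a receptor for fatty acids and thrombospondin (454 pairs, left anchors in chr7:80265105-80580217, right anchors in chr7:80995196-81130153). It held the strongest of all H4-only pairs, of 29.9 in H4 and 25.03 in H4 88-1, at least 5.58-fold over the higher 42MGBA floor. That pair spanned 757 kb from an anchor 26.2 kb from the nearest CD36 start to one 301 kb from the start of HGF, both outside protein-coding genes. No pair of the group had a 42MGBA pair within 10 kb. SEMA3C lies on the minus strand of chr7:80371854-80551675. All 70 pairs that both H4 lists held at any of its annotated starts were H4-only. Their H4 strengths ran from 4.32 to 17.0 (median 7.17) and their H4 88-1 strengths from 4.47 to 13.2 (median 5.47). The 2 ranges overlap, with the upper end higher in H4. Pairs were also counted around the outermost SEMA3C start, with the left anchor from 300 kb before it to the start itself and the right anchor 400 to 600 kb past it. There the H4 list held 660 pairs, the H4 88-1 list 417, and both 42MGBA lists 0.

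**Figure D4:**
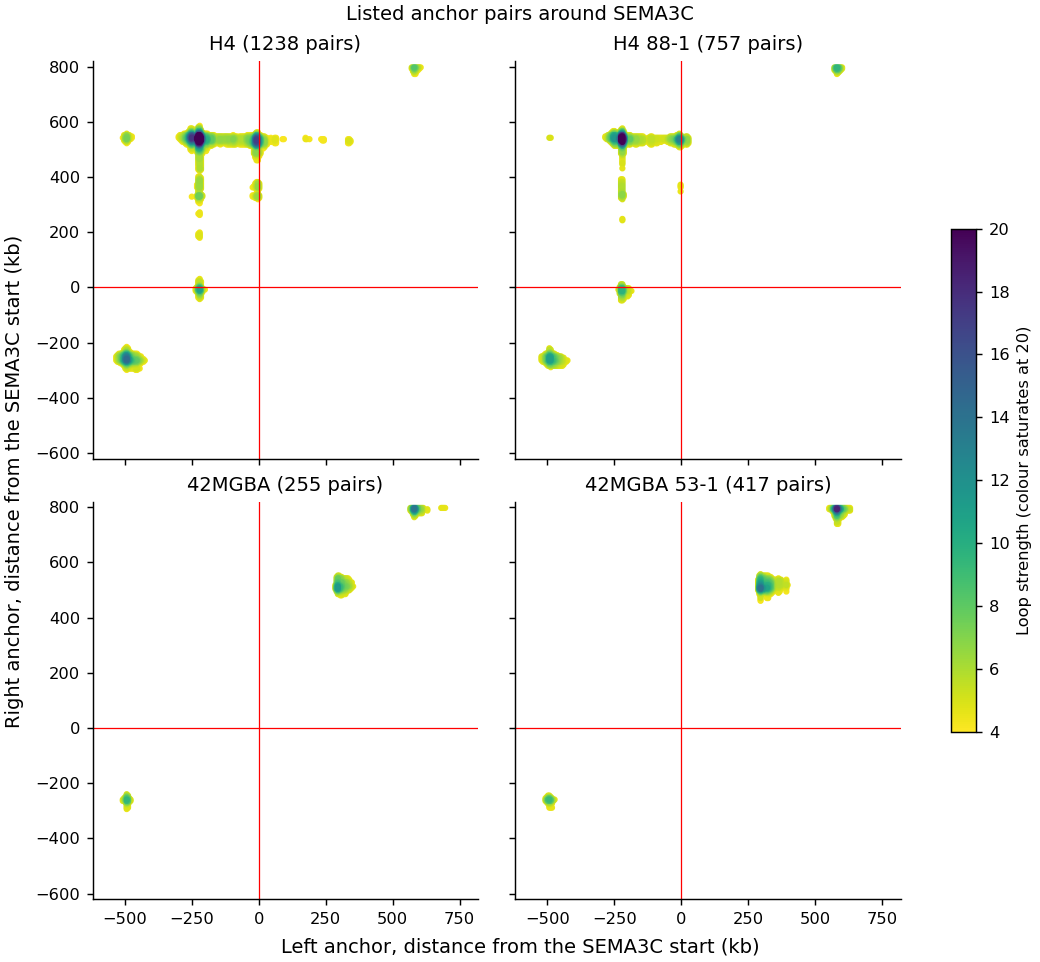
Anchor pairs listed in each cell line around the outermost SEMA3C start (red lines), with loop strength as colour. The left anchor is on the horizontal and the right anchor on the vertical axis, both as distance in kb along the chromosome. H4 (1238 pairs) and H4 88-1 (757) show a spot and a stripe that end about 540 kb to the right of the start, and 42MGBA (255) and 42MGBA 53-1 (417) have no pair there.

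Other large groups on chromosome 7 lay at the genes of insulin-like growth factor binding proteins and at TNS3. The group at IGFBP3 and IGFBP1 (343 pairs) was the longest of the 10 largest, with a median of 1259 kb, and its strongest pair reached 12.7 in H4 and 10.8 in H4 88-1. The group at TNS3, a tensin of focal adhesions, PKD1L1, a polycystin, HUS1, of the DNA damage response, and SUN3 (436 pairs) had maxima of 9.54 and 8.48. Both groups lay beside 42MGBA pairs, with 256 of 343 and 308 of 436 of their pairs within 10 kb of one. The 42MGBA lists held 1743 and 1897 pairs between the outermost anchors of the first, where the H4 lists held 2502 and 1958.

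On chromosome 10, 321 pairs ran from ATAD1, an ATPase that clears misplaced mitochondrial membrane proteins, to the stretch chr10:90113154-90330629. The strongest, of 22.7 in H4 and 18.5 in H4 88-1, joined introns of ATAD1 and RNLS over 574 kb. Of the 321 pairs, 313 had no 42MGBA pair within 10 kb. Between the left and right stretches of this group, the H4 list had 2 pairs with an anchor and the H4 88-1 list 0. The 42MGBA list had 100 such pairs and the 42MGBA 53-1 list 97. The stretch between thus made almost no listed contact in the H4 lines, and the size of 574 kb is distance along the reference genome. The cause was not tested. A further group next to it, at MINPP1, an inositol polyphosphate phosphatase, reached 16.2 in H4 and 13.0 in H4 88-1 (56 pairs, 37 of them within 10 kb of a 42MGBA pair).

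The remaining large groups held a homeobox cluster, epithelial factors and metabolic genes. On chromosome 17, 323 pairs joined SKAP1 to HOXB1 to HOXB9, with maxima of 8.98 in H4 and 9.48 in H4 88-1, and 236 of them had a 42MGBA pair within 10 kb. The group at EHF and ELF5, factors of the ETS family known from epithelia, with CAT, PDHX and APIP (300 pairs, 165 within 10 kb of a 42MGBA pair), reached 9.58 and 13.1. At OPA1, a mitochondrial fusion protein, with CPN2 and LRRC15, 266 pairs spanned HES1, a Notch target, and 164 of them lay within 10 kb of a 42MGBA pair. The groups at CEP112 and APOH (228 pairs, 118 within that distance) and at RHOU and RAB4A (220 pairs, 96 within it) completed the 10 largest. Between the outermost anchors of the RHOU group there were 396 pairs of the H4 list and 286 of the H4 88-1 list, but 28 of the 42MGBA list and 0 of the 42MGBA 53-1 list.

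Among the groups outside the 10 largest, 10 were named by their strongest pair. The group at SP8, a zinc finger factor of limb and brain development, had 65 pairs with strengths up to 14.98 in H4 and 14.4 in H4 88-1, and the 42MGBA lists held 0 pairs between its outermost anchors. The group at SOX2, a factor of neural and glioma stem cells, had 62 pairs with strengths from 4.47 to 13.0 in H4 and from 4.47 to 14.1 in H4 88-1, again with 0 pairs in the 42MGBA lists. The nearest 42MGBA pair to its strongest member was 1128 kb away. Groups partly beside 42MGBA pairs lay at PDE10A, a cyclic nucleotide phosphodiesterase (58 pairs, 26 within 10 kb of a 42MGBA pair), and at PDE4D, another phosphodiesterase (77 pairs, 31 within 10 kb). FAM43A, LSG1 and XXYLT1 had 100 pairs, 12 of them within 10 kb of a 42MGBA pair, up to 12.8 in H4 and 13.7 in H4 88-1. On chromosome X a group of 129 pairs with no gene at its anchors reached 12.7 and 13.8. The last 3 included a group around NAMPT, an enzyme of NAD synthesis, with 140 pairs, 48 of them within 10 kb of a 42MGBA pair. Another, at C18orf63, had 28 pairs of 1278 kb median size. The third ran from a stretch outside protein-coding genes, across FEZF1, to CADPS2, with 44 pairs and 0 in the 42MGBA lists.

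H4-only pairs touched many genes. The start of every annotated transcript of a protein-coding gene was counted, so a gene can have several starts, some of them far inside it. Such a start lay within 3 kb of an anchor in 42.6% of H4-only pairs, against 47.1% of pairs in all 4 lists and 44.6% of 42MGBA-only pairs. In all, 3852 of the 10019 genes with a pair in any list had an H4-only pair (38.4%), 3199 had a 42MGBA-only pair (31.9%) and 833 had both. For 809 genes with an H4-only pair neither 42MGBA list held any pair.

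BCL6, a transcriptional repressor, led with 267 H4-only pairs of 373 in both H4 lists, in 16 groups, with sizes from 283 to 1422 kb. H4 strengths at BCL6 ran from 4.16 to 10.0 (median 5.37) and H4 88-1 strengths from 4.45 to 9.14 (median 5.26). ENSG00000285938, whose start is next to that of BCL6, shares many of these anchors and had 169. BCAS3 had 180 of 193, with just 1 pair at any of its starts in all 4 lists. Its strongest pair, of 12.1 in H4 and 11.3 in H4 88-1, ran from an anchor inside the gene to one within 3 kb of the start of TBX2. TANC2, a synaptic scaffold, had 170 of 242, PKD1L1 161 of 398 and CD36 160 of 190. P3H2, a collagen prolyl hydroxylase, had 157 of 246, and its strongest pair had 11.1 in both lines.

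INHBA, the activin A subunit, had 156 of 292 together with 59 42MGBA-only pairs. SLC1A2, the glutamate transporter of astrocytes, had 154 of 366, IGFBP3 145 of 523, KSR1, a scaffold of the RAS pathway, 105 of 187, and MTHFSD 103 of 177. HOXB3 had 209 of 401, HOXB6 107 of 199 and HOXB7 98 of 203. These counts are of anchor pairs, and genes with neighbouring starts share them.

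Of genes with no 42MGBA pair, SOX6, a factor of neural and cartilage development, had the most, 82 pairs with H4 strengths from 4.53 to 10.2 and H4 88-1 strengths from 4.46 to 10.5. It was followed by AKAP1 with 81, C11orf58, whose start is near that of SOX6, with 78, SEMA3C with 70, NRCAM, a neuronal adhesion molecule, with 57, MECOM, a zinc finger oncogene, with 55 and RHOU with 49. HUWE1, a ubiquitin ligase gene on chromosome X, had short pairs, 41 that spanned 4.91 to 72.5 kb, with median strengths of 5.82 in H4 and 4.80 in H4 88-1.

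The developmental gene lists gave the following counts of genes with an H4-only pair among those with a pair in any list, to be read beside 38.4% for all genes. Of HOX genes, which pattern the body axis, 35 of 39 had one (89.7%), and 17 had a 42MGBA-only pair (43.6%, beside 31.9% for all genes). HOX genes lie in 4 clusters and share anchors, so that the 35 are not independent. Only 2 of the 35 had no pair in a 42MGBA list. HOXA9 was the highest outside HOXB, with 93 pairs up to 9.59 in H4 and 9.08 in H4 88-1. Just 1 of these 93 had no 42MGBA pair within 10 kb, beside 2 of 98 at HOXB7, 28 of 107 at HOXB6 and 64 of 209 at HOXB3. Most H4-only pairs at these 4 genes thus lay beside a 42MGBA pair. Of other homeobox factors 14 of 43 had one and 15 had a 42MGBA-only pair, with LHX9 (19), DLX3 (18), MSX2 (18) and DLX5 (10) having the most H4-only pairs. T-box and forkhead factors had one in 11 of 19 and a 42MGBA-only pair in 5, led by FOXF1 (62), TBX2 (60 of 70 pairs in both H4 lists), FOXC2 (37) and FOXD1 (20).

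Of SOX factors, 6 of 8 had an H4-only pair and 2 a 42MGBA-only pair. SOX6, SOX2 (25 pairs at its start, none in 42MGBA), SOX9 (21) and SOX13 (9) had the most. Helix-loop-helix factors had one in 8 of 18 and a 42MGBA-only pair in 6, with TCF4 (17), HES1 (11), TWIST1 (10) and HAND1 (6). At TCF4 the median strength was 4.95 in H4 and 5.97 in H4 88-1. Mesenchymal regulators and AP-1 had one in 7 of 23 and a 42MGBA-only pair in 14, with TEAD1 (28), ETV4 (8), SNAI1 (7) and WWTR1 (5).

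Of genes of the matrix, 12 of 35 had an H4-only pair (34.3%) and 30 a 42MGBA-only pair (85.7%). COL12A1 had 62 H4-only and 207 42MGBA-only pairs, while LAMB1 (19) and VCAN (18) had no 42MGBA-only pair and TNC had 13 and 20. Axon guidance genes had an H4-only pair in 17 of 30 and a 42MGBA-only pair in 12, with SEMA3D (96), SEMA3C (70), SLIT2 (26) and EPHB3 (17). At SLIT2, a repulsive guidance ligand, the strongest pair had 10.5 in H4 and 11.5 in H4 88-1. WNT, BMP and TGF-beta ligands and modulators had one in 14 of 38 and a 42MGBA-only pair in 18, with INHBA, TGFB2 (74), WNT5B (57) and CHRD (28).

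Receptor tyrosine kinases had an H4-only pair in 11 of 25 and a 42MGBA-only pair in 7, with DDR1 (18), FGFR1 (16) and FLT1 (15). Cytokines and chemokines had one in 13 of 20 and a 42MGBA-only pair in 10, with TSLP (10), CXCL14 (10), IL12A (9) and CSF3 (8), and cadherins in 2 of 10 and 1 of 10, with CDH22 (8) and CDH20 (1). Of astrocyte markers 7 of 10 had one and 3 a 42MGBA-only pair, with SLC1A2, NFIB (30), GFAP (27) and SOX9. GFAP, the astrocyte intermediate filament, had H4 strengths from 4.28 to 7.39. Of oligodendrocyte and neuronal markers 4 of 7 had one and 3 a 42MGBA-only pair, with MBP (42), RBFOX3 (4), PDGFRA (1) and NEFM (1).

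The last lists concern the cohesin and Polycomb machinery and the cell cycle. Cohesin and loop extrusion genes had an H4-only pair in 4 of 10 and a 42MGBA-only pair in 4, with STAG1, the paralog of STAG2, at 18, SMC3 at 10, PDS5A at 2 and SMC1A at 1. At STAG1 the strongest pair had 8.60 in H4 and 8.82 in H4 88-1. Polycomb genes had one in 6 of 15 and a 42MGBA-only pair in 5, with EED (15), CBX7 (5), CBX2 (3) and CBX8 (2). Cell cycle and p53 genes had one in 9 of 17 and a 42MGBA-only pair in 7, with CDKN1B (50), CCND1 (15), CCND2 (14) and CDKN1C (13). Loop lists say nothing of the expression of these genes, which was not analysed here.

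The comparison of H4 88-1 with H4 describes these pairs in a STAG2-corrected line beside its STAG2-mutant parent. With 1 pooled list for each, correction of STAG2 cannot be told apart from other differences between the lines or from the scale of each list. The rule that chose the pairs did not use their ratio, although each pair had to pass both H4 floors. The median log2 ratio of H4 88-1 to H4 strength was 0.08 (quartiles -0.09 and 0.23) against 0.09 for all pairs of both H4 lists, and its sign turned to -0.01 when all ratios were centred on that median. H4 88-1 was over 1.5-fold stronger in 1479 H4-only pairs (2.29%), beside 3.12% of all pairs in both H4 lists. H4 was over 1.5-fold stronger in 574 (0.889%), beside 0.835%. After centring the counts were 676 and 1174, so that the balance between the directions depends on the scaling. The centred shares of all pairs in both H4 lists were not computed, so the centred counts cannot be set beside a background. Before centring, the share stronger in H4 lay near the background and the share stronger in H4 88-1 lay under it. Among pairs of both H4 lists that a 42MGBA list also held, 3.48% were stronger in H4 88-1 and 0.811% in H4. In all 5 bins of strength the median ratio was lower for H4-only pairs than for the other pairs. It was 0.097 against 0.103 in the weakest bin and -0.02 against 0.07 in the strongest.

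Chromosome 7 held 274 of the 574 pairs stronger in H4 (47.7%), and 30.8% of all 1780 such pairs in both H4 lists. On chromosome 7, H4 was over 1.5-fold stronger in 2.97% of H4-only pairs and H4 88-1 in 1.20%, beside 2.14% and 1.68% of the 12870 pairs of both H4 lists there that a 42MGBA list also held. Without chromosome 7 the shares were 0.542% and 2.47% of H4-only pairs, beside 0.685% and 3.65% of the pairs that a 42MGBA list also held. On the deposited scale, without centring, both sets thus had on chromosome 7 more pairs stronger in H4 than in H4 88-1, and elsewhere both had fewer. Pairs stronger in H4 had a median size of 609 kb and those stronger in H4 88-1 of 313 kb, and the same sizes among all pairs of both H4 lists were 577 kb and 254 kb.

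**Figure D5:**
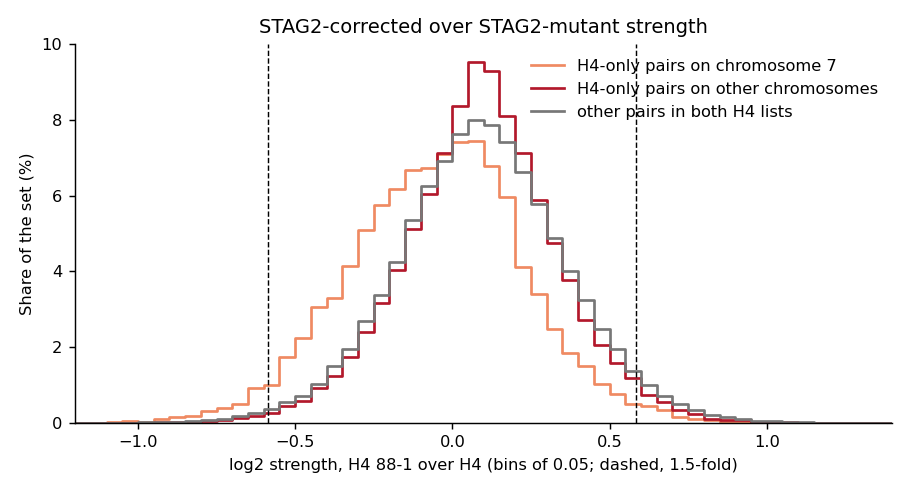
Distribution of the log2 ratio of H4 88-1 (STAG2-corrected) to H4 (STAG2-mutant) strength, as the share of each set in bins of 0.05, for H4-only pairs on chromosome 7 (orange), H4-only pairs on other chromosomes (red) and the other pairs of both H4 lists (grey). Dashed lines mark 1.5-fold. The orange curve is centred at a median of -0.04, and the red curve, with a median of 0.09, peaks in the same bin as the grey one.

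The extreme pairs lay at a calcium channel gene and on chromosome 7. CACNA1E, which encodes a voltage-gated calcium channel, had the highest ratios, at 4.22 in H4 and 10.8 in H4 88-1 for the pair from chr1:181446371-181451051 to chr1:181900096-181904813, and of 4.46 and 10.9 for its neighbour, which shares the left anchor in a CACNA1E intron. Neither anchor of either pair was used in a 42MGBA list. Both H4 values lay under the 42MGBA floor of 4.49, and the value of 4.22 was near the H4 floor of 4.14. In H4 these pairs are thus not shown to be stronger than in 42MGBA. The lowest ratio was that of a pair from a DOCK4 exon to an anchor 1.68 kb from the start of IFRD1, with 9.81 in H4 and 4.66 in H4 88-1 over 653 kb. It was followed by a pair ending in an intron of DGKB, a diacylglycerol kinase, with 12.1 and 5.86 over 924 kb. The IFRD1 pair had a 42MGBA pair 4.86 kb away, and the DGKB pair had none within 231 kb.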

How the data were processed

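Hi-C was done on 2 replicates of each of 4 cell lines. Per the study's methods, reads were shortened and mapped to hg19 by the authors (Bowtie), who retained uniquely mapped, non-duplicate pairs, corrected biases with HiCorr and enhanced contacts with DeepLoop. The deposited signal is the loop strength of the 300000 strongest anchor pairs of each line, replicates pooled. The lists hold no read counts, so the depth behind a pair and its counting error are unknown.

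Lists were joined on identical anchors in Python 3.11.15 (pandas 2.3.3, scipy 1.17.1). The hg19 build was checked on the reference sequence: 99.998% of 128561 anchors start at a restriction site of the kit. Size is the distance between anchor midpoints. Pairs were joined into groups, and matched to 42MGBA, within 10 kb at both ends. Starts of all annotated transcripts of protein-coding genes (GENCODE release 44 lifted to this build) within 3 kb counted. The steps were tested on simulated data. Alternatives varied the list depth, distances, fold limit and centring, and left out chromosome 7.

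Named are the 10 largest groups, the 10 strongest others, the 15 genes with the most pairs, up to 4 genes per list (the developmental and other lists above), and the 2 highest and 2 lowest ratios; genes with no 42MGBA pair (SOX6 to HUWE1) and DOCK4, RNLS and HGF were chosen after their values were seen. Sequences are of up to 6 pairs of named groups. The set and the lists were chosen with earlier results of these data known. RNA-seq was not analysed here, and the results for 2 genes are not reported here.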

Additional observations from a re-analysis of the deposited data

How the results depend on the processing

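Every comparison here rests on 1 pooled list per cell line, and no value has an error. No paired analysis was possible because the deposited lists pool the replicates. The floors limit what absence means, since a pair just under a floor is counted as absent.

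The number of pairs was 64555. It became 22827 with the 100000 strongest pairs of each list, 7636 with the 100000 strongest of both H4 lists absent from the full 42MGBA lists, 24090 without those that had a 42MGBA pair within 10 kb, and 5942 with 1 pair per group. It stayed within 1.5 times of 64555 with 200000 pairs per list (43946) and without chromosome 7 (55331).

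In the order 200000 pairs per list, 100000 pairs per list, the 100000 strongest H4 pairs absent from the full 42MGBA lists, no 42MGBA pair within 10 kb, 1 pair per group, and no chromosome 7, the median size was 378, 382, 431, 409, 312 and 350 kb. In that order the median log2 ratio was 0.0746, 0.0681, 0.0534, 0.0667, 0.0840 and 0.0928, and it was -0.00937 after centring on all pairs of both H4 lists, which reversed its sign. The pairs over 1.5-fold stronger in H4 were 357, 130, 53, 269, 78 and 300, with 1174 after centring and 4143 at 5/4-fold. Those stronger in H4 88-1 were 829, 312, 90, 555, 223 and 1368, with 676 after centring and 9648 at 5/4-fold. For centring and for 5/4-fold, the shares of all pairs of both H4 lists were not computed, so these counts have no background. The share with both anchors used in 42MGBA was 45.3%, 37.4%, 49.5%, 21.7%, 66.3% and 49.9%.

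The share with a start at an anchor was 41.1% for the 100000 strongest H4 pairs, 41.9% with no 42MGBA pair within 10 kb, 46.2% with 1 pair per group, 43.7% without chromosome 7, 25.6% with the start inside the anchor and 64.1% with it within 10 kb. The share with no 42MGBA pair within 10 kb was 40.1% at 100000 pairs per list, 35.97% for the 100000 strongest H4 pairs, 26.0% with 1 pair per group and 36.8% without chromosome 7, and it was 23.8% at 25 kb. Convergent motifs at both anchors were found in 0.167% of all H4-only pairs, and in 0.311% at 100000 pairs per list, 0.262% of the 100000 strongest H4 pairs, 0.295% with no near 42MGBA pair and 0.539% with 1 pair per group. Linking within 5 or 25 kb gave 8369 and 4198 groups in place of 5942. Apart from the construction of each alternative, the cause was not tested.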
